A study of Mus musculus with 12 samples.

Results

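The guanylate-binding proteins are a family of large GTPases, and the 9 mouse genes Gbp2 to Gbp10 were taken from the count table by their symbols. All 9 were among its 24956 gene symbols. The table held 12 libraries, each from 1 tumour grown from PDA.69, a single pancreatic ductal adenocarcinoma line derived from KPC mice and labelled as T cell low. In 6 tumours the host was wild type (WT), and in the other 6 it carried Alb-Cre+/+ and STAT3f/f, so that Cre driven by the albumin promoter removes Stat3, a transcription factor of the acute phase response, from the host's hepatocytes and not from the implanted tumour cells (here called Alb-Cre Stat3f/f tumours). Every group therefore shared the same tumour line. No source used here gives the hosts' age or sex. RNA came from fixed, paraffin-embedded tissue scraped off slides and was read at the 3' ends of its transcripts. Library totals lay between 5691707 and 8085609 counts.

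Guanylate-binding proteins belong to the dynamin superfamily and are made in many cell types after exposure to interferon gamma, in part through the transcription factor IRF1, and to a lesser extent after type I interferons. They assemble on the membranes of vacuoles that hold microbes and on bacteria, expose microbial products to the cytosol and promote inflammasome activation by caspase-11 (encoded by Casp4). In tumours their transcripts are widely read as a sign of interferon gamma acting on the cells present. The mouse genes lie in 2 clusters. Gbp5, Gbp7, Gbp3 and Gbp2 stand in that order on the plus strand of chromosome 3, from 142493978 to 142638008 (GRCm38, the assembly also called mm10), with Gbp2b among them. Gbp8, Gbp9, Gbp4, Gbp10 and Gbp6 stand on the minus strand of chromosome 5, from 105014150 to 105293698. The annotated spans of Gbp8, Gbp9 and Gbp4 overlap. Gbp2 and Gbp5 end in a motif to which a lipid anchor is attached.

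The bases just upstream of the start are shown for the 4 genes on chromosome 3, the only members with a promoter window available here. These genes hold most of the family's reads, and interferon response motifs can be looked for in the windows. Each sequence runs 5′ to 3′ on the gene's strand and ends at the base before the RefSeq start (GRCm38.p6). Capitals mark matches to TTCNNNGAA, the consensus of the interferon gamma activated site (GAS), and to the core of the interferon-stimulated response element (ISRE), taken as 2 copies of GAAA with any 2 bases between them, each searched on either strand.
Gbp2: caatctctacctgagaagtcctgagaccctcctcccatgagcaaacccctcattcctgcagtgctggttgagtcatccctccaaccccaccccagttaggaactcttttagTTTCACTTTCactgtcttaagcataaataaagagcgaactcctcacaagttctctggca
Gbp3: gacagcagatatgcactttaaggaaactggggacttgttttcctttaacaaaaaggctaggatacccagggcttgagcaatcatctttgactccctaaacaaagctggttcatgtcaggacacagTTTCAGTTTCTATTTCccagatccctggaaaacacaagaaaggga
Gbp5: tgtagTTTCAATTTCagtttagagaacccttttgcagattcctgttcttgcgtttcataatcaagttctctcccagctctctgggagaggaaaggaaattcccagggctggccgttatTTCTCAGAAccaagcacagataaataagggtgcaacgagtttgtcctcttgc
Gbp7: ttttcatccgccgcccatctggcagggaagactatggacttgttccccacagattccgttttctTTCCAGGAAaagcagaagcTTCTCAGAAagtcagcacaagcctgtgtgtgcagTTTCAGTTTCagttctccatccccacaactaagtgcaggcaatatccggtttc
The stretches are chr3:142620493-142620662 for Gbp2, chr3:142559874-142560043 for Gbp3, chr3:142496764-142496933 for Gbp5 and chr3:142530166-142530335 for Gbp7. The windows searched reach from 250 bases before the start to 50 after it. Each of these windows held an ISRE match on the reverse strand, beginning 59 bases upstream of the start in Gbp2, 45 and 39 bases in Gbp3 (overlapping each other), 165 in Gbp5 and 53 in Gbp7. GAS matches began 52 bases upstream in Gbp5 and 106 and 87 bases upstream in Gbp7, and a further one in Gbp5, 245 bases upstream, lies outside the stretch shown. The same letters, TTCTCAGAA, made the nearer GAS match of Gbp5 and of Gbp7. Of all 32851 promoter windows of this length, 3.44% held the ISRE core, 8.3% the GAS consensus and 0.454% both. A further RefSeq start of Gbp3 had neither motif in its window. Windows of Gbp4, Gbp6, Gbp8, Gbp9 and Gbp10 were not available here, so their promoters were not searched. A match of letters is a description of the window and was not tested for binding or for an effect.

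How far the 9 genes can be told apart by reads from their 3' ends was examined in the GENCODE M21 transcripts. Among all 50-base words of the last 400 bases of their coding transcripts, none of Gbp2 or Gbp7 occurred in another gene, against 2.11% for Gbp5 (shared with genes outside the family), 4.3% for Gbp3, 4.84% for Gbp9, 9.4% for Gbp8 and 22.9% for Gbp4. For Gbp6 the share was 88% and for Gbp10 it was 100%, shared with each other and with the predicted gene Gm43302, and for Gbp6 also with Gbp9. The counts of Gbp6 and Gbp10 are therefore uncertain as values of single genes. No source used here gives the read length or the treatment of reads that map to several places, so the 50-base word is a chosen length.

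The guanylate-binding protein genes were higher in Alb-Cre Stat3f/f tumours than in WT tumours. The counts of all 9 genes, summed within a tumour and given as CPM (counts scaled to a common library size by the TMM method), were 139.8 in the lowest WT tumour, 265 at the median and 312 in the highest. In Alb-Cre Stat3f/f tumours they were 374 at the lowest, 496 at the median and 894 at the highest, so that the genotypes did not overlap. The means were 237 ± 73.6 and 539.6 ± 187.7 CPM (SD, n = 6 each). Fitted as a single feature, the sum had a log2 fold change of 1.19 ± 0.26 (SE), with no test made for it. The sum does not depend on how counted reads were divided among the 9 genes, but still on reads shared with Gbp11 or Gm43302. It would also lack any reads dropped for mapping to several of the 9 genes. Fewer cells of a type and less RNA per cell cannot be told apart in bulk tissue, and this holds for every value that follows.

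Of the 9 genes, 8 had enough counts to be tested, and all 8 had a positive log2 fold change, with a median of 1.09 against 0.00 over the 12856 genes tested. By the quasi-likelihood test of edgeR, with Benjamini-Hochberg adjustment across the tested genes, 5 rose (Gbp2, Gbp3, Gbp4, Gbp7 and Gbp9), 0 fell and 3 did not pass (Gbp5, Gbp6 and Gbp8). Over all genes 2.23% were called higher and 0.747% lower. In TMM-normalised CPM, the lowest Alb-Cre Stat3f/f tumour exceeded the highest WT tumour in 4 of the 8 (Gbp2, Gbp3, Gbp4 and Gbp7). The same was so for 1.37% of all tested genes. No label says that each tumour came from its own mouse, so the p-values measure only the spread between these samples, which may be technical. At an unadjusted p under the threshold 7 of the 8 were higher, as were 11.5% of all tested genes.

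**Figure D1:**
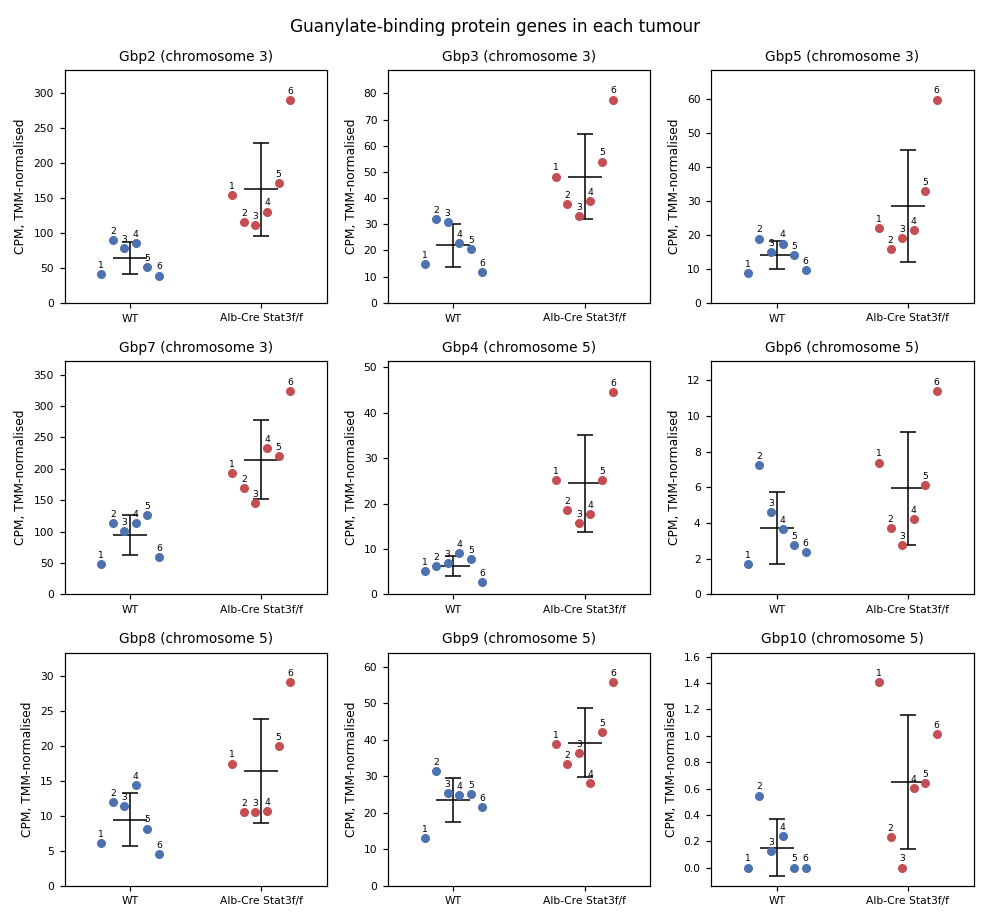
TMM-normalised CPM of each of the 9 genes in each tumour, with the tumour's number beside its point and the group mean ± SD (n = 6) as a bar. Alb-Cre Stat3f/f tumour 6 was the highest of the 12 for 8 of the genes, and tumour 1 for Gbp10.

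Gbp2 and Gbp7 carried most of the family's reads, and no word of their own 3' ends occurred in another gene. The 4.3% of Gbp3 words found in another gene were found in Gbp7, outside the 3' ends of the coding transcripts of Gbp7. Gbp2, a prenylated member that coats the vacuoles of Toxoplasma, had 38.95 CPM in the lowest WT tumour, 65 at the median and 89.99 in the highest, and 112, 142 and 290.4 CPM in Alb-Cre Stat3f/f tumours. The lowest Alb-Cre Stat3f/f tumour, number 3, thus lay above the highest WT tumour, number 2. Its log2 fold change was 1.34 ± 0.30, a 2.52-fold rise, with an edgeR Benjamini-Hochberg adjusted p of 0.0374. Gbp7, linked to the assembly of the phagocyte oxidase, had 48.8, 107 and 126 CPM in WT tumours (lowest, median and highest) and 145, 207 and 324 CPM in Alb-Cre Stat3f/f tumours, again with no overlap. Its log2 fold change was 1.19 ± 0.26 (2.29-fold), with an edgeR Benjamini-Hochberg adjusted p of 0.0325.

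Gbp3 and Gbp5 are the other chromosome 3 genes. Gbp3 had 11.6, 21.6 and 31.9 CPM in WT tumours against 33, 43.6 and 77.7 CPM in Alb-Cre Stat3f/f tumours (lowest, median and highest). The gap between the groups was narrow, from WT tumour 2 to Alb-Cre Stat3f/f tumour 3. Gbp3 rose by 1.14 ± 0.26 on the log2 scale (2.20-fold), with an edgeR Benjamini-Hochberg adjusted p of 0.0329. Gbp5, a prenylated member tied to the NLRP3 inflammasome in macrophages, had 8.76, 14.5 and 18.9 CPM in WT tumours against 15.9, 21.6 and 59.7 CPM in Alb-Cre Stat3f/f tumours. Of the latter, 5 lay above every WT tumour and tumour 2 fell within the WT range. The Gbp5 log2 fold change was 1.04 ± 0.31, close to that of Gbp3, but its edgeR Benjamini-Hochberg adjusted p was 0.0856. Their difference was not tested.

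On chromosome 5, Gbp4 had the highest fold change and the lowest p of the 8 tested genes. Gbp4, reported as a regulator of IRF7 and type I interferon, had 2.77, 6.58 and 9.11 CPM in WT tumours (lowest, median and highest) and 15.6, 21.8 and 44.6 CPM in Alb-Cre Stat3f/f tumours. The groups did not overlap. Gbp4 rose by 1.96 ± 0.28 on the log2 scale, 3.88-fold, with an edgeR Benjamini-Hochberg adjusted p of 0.00127, which was number 21 by p among the 12856 genes. With 22.9% of its 3' end words in other genes, among them Gbp6, Gbp8, Gbp9 and Gbp10, its count is less certain than those of the chromosome 3 genes.

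Gbp9 had 13.2, 24.9 and 31.3 CPM in WT tumours against 28.2, 37.7 and 55.9 CPM in Alb-Cre Stat3f/f tumours (lowest, median and highest), of which tumour 4 fell within the WT range and the other 5 lay above it. It rose by 0.74 ± 0.18 on the log2 scale (1.67-fold), with an edgeR Benjamini-Hochberg adjusted p of 0.0340. Gbp8 had 4.57, 9.77 and 14.4 CPM in WT tumours against 10.5, 14.1 and 29 CPM in Alb-Cre Stat3f/f tumours, with 3 of 6 above every WT tumour and tumours 2, 3 and 4 inside the WT range. Its log2 fold change was 0.81 ± 0.30 with an edgeR Benjamini-Hochberg adjusted p of 0.154. Gbp6 had 1.71, 3.22 and 7.25 CPM in WT tumours against 2.79, 5.18 and 11.4 CPM in Alb-Cre Stat3f/f tumours, and the groups overlapped in 4 of 6 tumours. Its log2 fold change was 0.69 ± 0.37 (edgeR Benjamini-Hochberg adjusted p = 0.322).

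Gbp10 had too few counts for the filter, 7 in the 6 WT and 26 in the 6 Alb-Cre Stat3f/f tumours, with a count in 3 and 5 tumours. The ratio per effective library size was 4.61 (95% exact binomial interval 1.95 to 12.6, counting error only). In the fit with no filter, which takes the spread between tumours into account, its log2 fold change was 1.99 ± 1.05 and did not pass (edgeR Benjamini-Hochberg adjusted p = 0.344). Of the relatives outside the 9 genes, Gbp2b on chromosome 3 had 72 counts in WT tumours against 127 in Alb-Cre Stat3f/f tumours and a log2 fold change of 1.13 ± 0.63 (edgeR Benjamini-Hochberg adjusted p = 0.342). Gbp11, annotated as a polymorphic pseudogene, had 7 and 10 counts. The highest Gbp2b tumours were Alb-Cre Stat3f/f 1 and 3, in contrast to the other chromosome 3 genes, for which tumour 6 was highest.

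**Figure D2:**
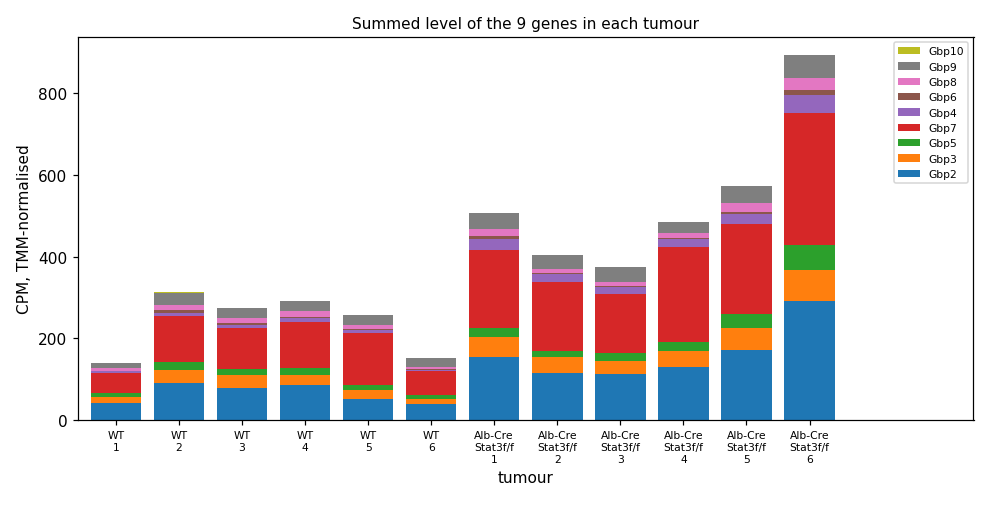
TMM-normalised CPM of the 9 genes stacked for each of the 12 tumours. The total lies between 139.8 and 312 CPM in WT tumours and between 374 and 894 CPM in Alb-Cre Stat3f/f tumours, and Gbp7 and Gbp2 make up the largest parts of every bar.

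The make-up of the family's reads changed less than its level for most genes. Because a 3' library reads each transcript near its end, counts are not divided by length, and the shares below are shares of 3' reads. Gbp7 held 39.4 ± 5.16% of the 9 genes' counts in WT tumours against 40.2 ± 4.24% in Alb-Cre Stat3f/f tumours (mean ± SD, n = 6), and Gbp2 27.1 ± 3.71% and 29.7 ± 1.88%. The Gbp2 share lay above every WT tumour in 4 of 6 Alb-Cre Stat3f/f tumours, and that of Gbp7 in 0. Gbp9 and Gbp3 came next in WT, at 23.6 ± 5.98 and 22 ± 8.21 CPM, and did not differ beyond their spread. Gbp4 went from 2.70 ± 0.71% to 4.46 ± 0.51%, with 5 of 6 Alb-Cre Stat3f/f tumours above every WT tumour. Gbp9 went the other way, from 10.2 ± 2.06% to 7.51 ± 1.42%, with 5 of 6 below every WT tumour. Mean shares were also lower for Gbp5 (5.93 ± 0.37% to 5.03 ± 1.04%), Gbp6 (1.52 ± 0.45% to 1.06 ± 0.27%) and Gbp8 (3.92 ± 0.73% to 2.96 ± 0.51%). For these, 4, 4 and 3 of 6 lay below every WT tumour, and for Gbp5 1 lay above. By level, Gbp4 stood below Gbp8 in WT (6.33 ± 2.21 against 9.43 ± 3.76 CPM) and above it in Alb-Cre Stat3f/f tumours (24.5 ± 10.6 against 16.4 ± 7.42 CPM). The chromosome 5 genes together held 18.4 ± 1.24% in WT tumours against 16.1 ± 1.84% in Alb-Cre Stat3f/f tumours, in 4 of which the share lay below every WT tumour. These shares were compared by their ranges and not tested.

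Within a genotype the family also varied as a group. In WT, tumours 1 and 6 had the lowest summed levels (139.8 and 151 CPM) and tumours 2, 3, 4 and 5 lay between 256 and 312. Among Alb-Cre Stat3f/f tumours, number 6 (894 CPM) and number 5 (573 CPM) stood highest and number 3 (374 CPM) lowest. After the genotype means were taken out, log2 CPM of every pair of the 8 tested genes had a positive Pearson r over the 12 tumours, from 0.582 for Gbp9 with Gbp4 to 0.959 for Gbp2 with Gbp8, given as a description since the tumours share depth and cell content across genes. Measured in the same way, the named genes most like the mean of the 8 were Cxcl9 (r = 0.964), a chemokine induced by interferon gamma, Tlr12 (0.96), Rel (0.955), Apol10b (0.95), Ubd (0.948), Igtp (0.947), Iigp1 (0.943), Batf2 (0.926), Parp14 (0.918) and Oasl2 (0.911), out of 12277 ranked. Irf1 stood at place 14 (r = 0.896) and Casp4 at 289 (0.693). Of these 12 genes, Apol10b, Batf2 and Parp14 rose between genotypes.

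Of the 5 calls, 4 lay close to the threshold. Gbp4 passed in all 12 fits with 1 tumour left out, with an edgeR Benjamini-Hochberg adjusted p between 0.0012 and 0.00575. Gbp7 lost its call in 5 of them: leaving out WT tumours 3, 4 and 6 gave adjusted p of 0.0685, 0.0536 and 0.0621, and leaving out Alb-Cre Stat3f/f tumours 1 and 2 gave 0.0633 and 0.0501. Gbp3 lost its call in 4 of them: leaving out WT tumours 1, 4 and 5 gave adjusted p of 0.0678, 0.0681 and 0.0509, and leaving out Alb-Cre Stat3f/f tumour 1 gave 0.0718. Gbp2 lost its call in 7 of them: leaving out WT tumours 1, 3, 4, 5 and 6 gave adjusted p of 0.0761, 0.0675, 0.0525, 0.0565 and 0.0722, and leaving out Alb-Cre Stat3f/f tumours 1 and 2 gave 0.076 and 0.0508. Gbp9 lost its call in 7 of them: leaving out WT tumours 1, 3, 4 and 6 gave adjusted p of 0.057, 0.0668, 0.065 and 0.083, and leaving out Alb-Cre Stat3f/f tumours 1, 3 and 6 gave 0.0762, 0.0544 and 0.0823. Without WT tumours 1 to 6 in turn, 2, 5, 2, 1, 3 and 2 members passed, where 1.44, 1.95, 1.3, 1.4, 3 and 1.21% of all genes were called higher. Without Alb-Cre Stat3f/f tumours 1 to 6 in turn, 1, 3, 4, 5, 5 and 4 passed, where 1.09, 1.43, 1.54, 3.12, 3.64 and 1.75% of all genes were. Over the same fits the fold changes of the called genes kept their sign: Gbp2 ran from 1.08 to 1.45, Gbp7 from 1.03 to 1.29, Gbp3 from 0.94 to 1.27 and Gbp9 from 0.60 to 0.83 on the log2 scale. Gbp5 and Gbp6, which were not called, moved further, from 0.67 to 1.16 and from 0.39 to 0.99. Every tested member, called or not, had its lowest fold change without Alb-Cre Stat3f/f tumour 6, as did the summed family (0.97).

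Other tools and filters were run on all 12 tumours. The count of members called higher was 5 with RLE scaling (2.15% of all genes), with upper-quartile scaling (2.28%), with limma-voom (2.18%), without acinar genes and Rn45s (2.14%) and, of 7 left to test, at 10 CPM or more in 6 tumours (2.6%). DESeq2 called 6, adding Gbp5 at an adjusted p of 0.00949, and 4.81% of all genes. With no filter on low counts 2 passed, Gbp4 and Gbp9, and 1.53% of all genes, while Gbp2, Gbp3 and Gbp7 had edgeR Benjamini-Hochberg adjusted p of 0.0604, 0.0643 and 0.0577.

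**Figure D3:**
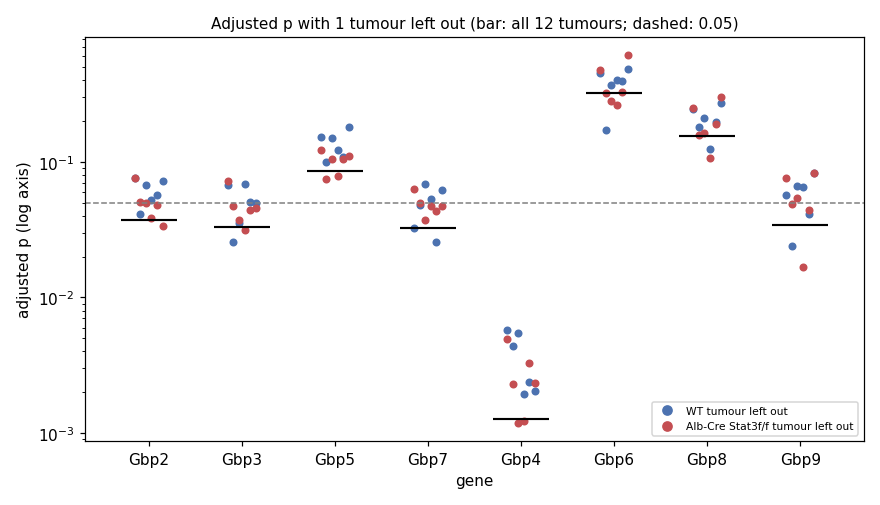
Adjusted p (log axis) of the 8 tested genes with 1 tumour left out at a time, coloured by the genotype of that tumour, with all 12 tumours as a black bar and 0.05 as a dashed line. Gbp4 stays between 0.0012 and 0.00575, Gbp2, Gbp3, Gbp7 and Gbp9 fall on either side of the line, and Gbp5, Gbp6 and Gbp8 stay above it.

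Tumours also differed in how much exocrine pancreas they held. Acinar genes took 5.95 ± 6.74% of WT and 20.9 ± 13.1% of Alb-Cre Stat3f/f counts (SD, n = 6), over 15% in 1 WT and 4 Alb-Cre Stat3f/f tumours. Without these 5 tumours the summed level of the family was 1.65 ± 0.37 higher on the log2 scale (5 WT against 2 Alb-Cre Stat3f/f tumours), a larger difference than with them. The 2 Alb-Cre Stat3f/f tumours kept, numbers 5 and 6, had the highest summed levels of all 12 (573 and 894 CPM). The larger difference therefore cannot be separated from the choice of these 2. In this fit Gbp4 and Gbp5 passed, at log2 fold changes of 2.52 ± 0.32 and 1.74 ± 0.30 and edgeR Benjamini-Hochberg adjusted p of 0.00553 and 0.0251, and the other 6 tested did not, while 0.607% of all genes were called higher. With the acinar score as a covariate the summed difference was 1.27 ± 0.30, and Gbp4 and Gbp9 passed, against 1.06% of all genes.

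Genes that act upstream of the family were looked at in a list of 13. Irf1, a transcription factor induced by interferon gamma, had 117, 189 and 240.2 CPM in WT tumours against 188, 260.5 and 348 CPM in Alb-Cre Stat3f/f tumours (lowest, median and highest), so that the groups overlapped. Its log2 fold change was 0.57 ± 0.20 (edgeR Benjamini-Hochberg adjusted p = 0.132), with 3 of 6 tumours above every WT tumour. Of the 12 tested, 8 had a positive fold change, 1 rose (Irf8, by 0.78 ± 0.16), 0 fell and 11 did not pass, and their median was 0.28. DESeq2 called 4 higher. The receptor genes Ifngr1 and Ifngr2 had log2 fold changes of -0.20 ± 0.13 and -0.36 ± 0.12. Ifng itself, which encodes interferon gamma, had 11 counts in WT tumours against 21 in Alb-Cre Stat3f/f tumours and did not pass the filter on low counts, and Alb-Cre Stat3f/f tumour 6, the tumour highest in 8 of the 9 Gbp genes, held 14 of the 21.

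Other inducible GTPases of host defence showed fold changes of a like size. Of 14 listed, 12 were tested, all 12 had a positive fold change with a median of 1.12, 4 rose, 0 fell and 8 did not pass. Irgm1, a regulator of the immunity-related GTPases, rose by 1.28 ± 0.17, Gm12250 (encoding Irgb10) by 1.61 ± 0.25, Ifi47 by 1.09 ± 0.19 and Tgtp2 by 1.95 ± 0.49 on the log2 scale, the last from 0.776 to 2.99 CPM. Of 17 type I interferon response genes, 16 were tested and 15 had a positive fold change, with a median of 0.58. Only Rtp4 of these rose (by 0.66 ± 0.15), 0 fell and 15 did not pass, although 14 had an unadjusted p under the threshold. Mx1 and Mx2, GTPases induced by type I interferon, had log2 fold changes of 0.30 ± 0.36 and 0.49 ± 0.35. DESeq2 called 6 of the 12 GTPases and 7 of the 16 type I response genes higher.

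Genes that act with the guanylate-binding proteins had medians near 0. Among 10 genes of the ubiquitin-like conjugation machinery that directs these proteins to vacuoles, 0 passed edgeR's test in either direction, with a median log2 fold change of 0.04. Of these, 2 had an unadjusted p under the threshold and a negative fold change, Gabarapl1 (-0.51 ± 0.14) and Map1lc3b (-0.34 ± 0.13), and DESeq2 called 1 lower. Among 6 genes of the prenylation pathway 0 passed, 0 had an unadjusted p under the threshold and DESeq2 called 0, with a median of 0.04. The 2 with the smallest p were Rce1 (0.29 ± 0.21) and Pggt1b (-0.26 ± 0.24). Of 10 inflammasome genes listed, 9 were tested under the listed symbol, with a median of -0.11. Among these 1 rose, Pycard, the adaptor ASC, by 0.69 ± 0.16. The gene left out was Irgb10, which stands among the symbols as Gm12250. It was counted with the GTPases above, where it rose by 1.61 ± 0.25, and is not part of this median. Casp4 had 25.1 CPM in WT tumours against 22.9 in Alb-Cre Stat3f/f tumours, a log2 fold change of -0.13 ± 0.21.

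**Figure D4:**
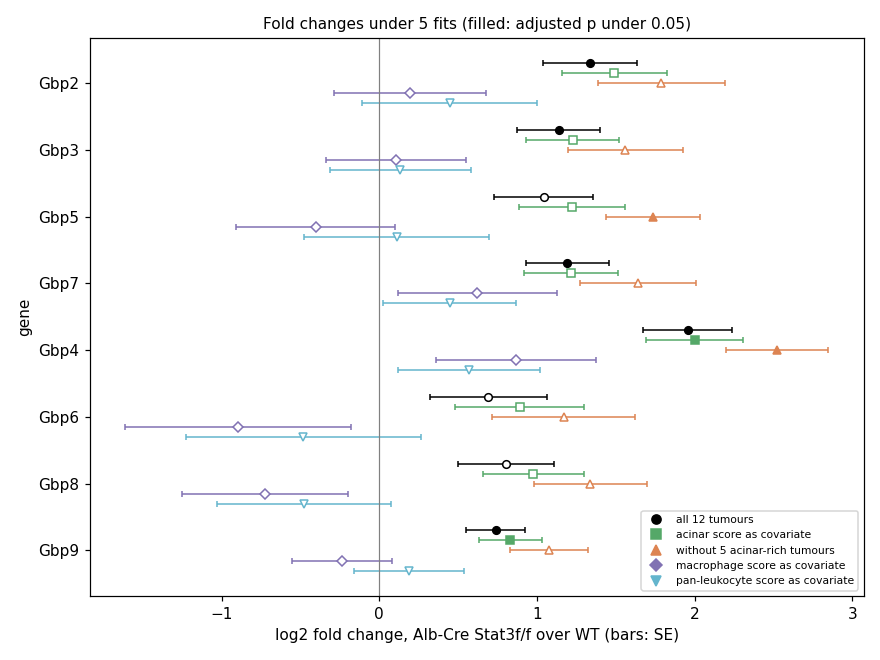
Log2 fold change ± SE of the 8 tested genes under 5 fits, filled where the adjusted p is under 0.05. The acinar covariate and the fit without 5 acinar-rich tumours leave every estimate positive, while with the macrophage score as covariate 4 of the 8 are positive and with the pan-leukocyte score 6 of the 8.

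Summed markers of T cells, dendritic cells, macrophages and all leukocytes were higher in the genotype with the higher family level. The other leukocyte lists overlapped more between genotypes. Summed T cell markers ran from 17.1 to 49.5 CPM in WT tumours and from 51.2 to 103 CPM in Alb-Cre Stat3f/f tumours, all 6 above every WT tumour, and pan-leukocyte markers from 225 to 386 and from 409 to 599 CPM. Dendritic cell markers ran from 39.4 to 80.3 and from 84.1 to 135.5 CPM, and macrophage markers from 1062 to 1600 and from 1596 to 2472 CPM. Monocyte markers ran from 149.6 to 353 and from 236 to 426.7 CPM, with 2 of 6 above every WT tumour. B cell markers ran from 2.05 to 16.4 and from 3.17 to 49.5 CPM (3 of 6 above). Neutrophil markers ran from 47 to 164 and from 86.8 to 155.5 CPM (0 of 6 above). Alb-Cre Stat3f/f tumour 6, highest in the family, held the lowest B cell sum of its group (3.17 CPM). By edgeR's test 1 of 9 T cell, 7 of 10 macrophage, 2 of 8 dendritic, 3 of 5 monocyte and 4 of 5 pan-leukocyte markers rose and 0 fell, and every tested gene of these 5 lists had a positive fold change. DESeq2 called 6, 9, 3, 3 and 5 of them higher. Tumour epithelial markers ran from 2031 to 2550 CPM in WT tumours and from 1593 to 2208 CPM in Alb-Cre Stat3f/f tumours, with 0 of 5 past edgeR's test and 0 positive. Of these, 2 had an unadjusted p under the threshold, and DESeq2 called 1 lower. Of 6 fibroblast markers 1 rose. In the lists of B cell (4 tested), neutrophil (4), endothelial (5), acinar (14) and hepatocyte (4) markers 0 passed edgeR's test, while 4, 2, 1, 3 and 0 of them had an unadjusted p under the threshold with a positive fold change, and DESeq2 called 1 B cell marker and 0 of the others. Of the markers found in the table, Cd79a (B cell) and Amy2a5 (acinar) had 0 counts in every tumour.

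Set against those markers, the family's level changed in different proportions. The summed CPM of the 9 genes per CPM of T cell markers was 7.74 ± 1.54 in WT tumours against 7.79 ± 1.15 in Alb-Cre Stat3f/f tumours (mean ± SD, n = 6), and per CPM of macrophage markers it was 0.169 ± 0.0346 and 0.258 ± 0.0662, with 5 of 6 tumours above every WT tumour. Per CPM of pan-leukocyte markers it was 0.738 ± 0.16 and 1.02 ± 0.296, with 3 of 6 above. Per CPM of dendritic cell markers it was 3.75 ± 0.52 and 4.81 ± 1.34, with 2 of 6 above. Alb-Cre Stat3f/f tumour 3 had the second highest macrophage level of the 12 (2439 CPM) and the lowest family level of its group. With the macrophage score as a covariate the summed log2 difference between genotypes was 0.28 ± 0.43, 0 of the 8 members passed edgeR's test, 0 had an unadjusted p under the threshold and their median was -0.07, and 0.0233% of all genes were called higher. With the pan-leukocyte score it was 0.35 ± 0.42, again with 0 members past the adjusted and the unadjusted threshold, and 0.0311% of all genes called. The SE of the sum was 0.26 without a covariate. Because these scores themselves differ between the genotypes, a difference between hosts in leukocyte content and one in Gbp RNA per cell cannot be told apart here.

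**Figure D5:**
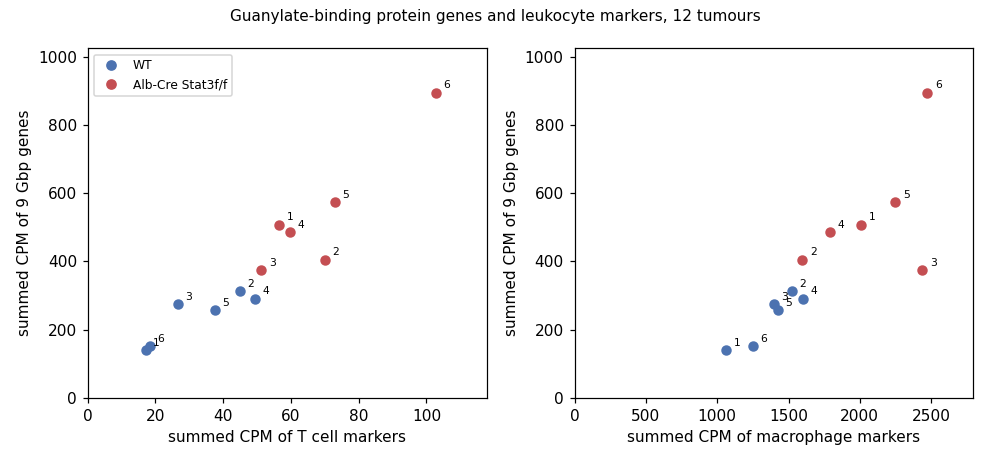
Summed TMM-normalised CPM of the 9 Gbp genes against summed CPM of T cell markers (left) and of macrophage markers (right) in the 12 tumours, numbered within genotype. Tumours of the 2 hosts separate on the T cell axis, at up to 49.5 CPM in WT and from 51.2 CPM in Alb-Cre Stat3f/f, and Alb-Cre Stat3f/f tumour 3 joins 2439 CPM of macrophage markers to the lowest Gbp level of its group.

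The relation between single members and marker scores was examined within each genotype, over 6 tumours at a time, in 48 relations (8 genes, 3 scores, 2 genotypes). In WT tumours r with the macrophage score was positive for all 8 genes, from 0.695 to 0.989 (rho 0.543 to 1), with an exact two-sided permutation p between 0.00139 and 0.115 for r and between 0.00278 and 0.297 for rho. The smallest p that the 720 orders of 6 tumours can give is 0.00139. For 7 of the 8 the unadjusted p was under the threshold, and for 0 after Benjamini-Hochberg adjustment over the 48 (smallest adjusted exact permutation p 0.0667 for r and 0.133 for rho). A single relation at the smallest possible p has an adjusted p of 0.0667 over 48 relations. It could not pass by itself, so the adjusted result cannot decide about a single gene. With the T cell score r in WT was 0.686 to 0.934 (rho 0.6 to 0.886, exact permutation p 0.0139 to 0.131 for r and 0.0333 to 0.242 for rho, smallest adjusted p 0.122 and 0.145). In Alb-Cre Stat3f/f tumours r was 0.049 to 0.757 with macrophages (rho -0.2 to 0.657) and 0.642 to 0.78 with T cells (rho 0.371 to 0.6), with no exact permutation p for r under 0.0611 and none for rho under 0.175. With the acinar score r was -0.161 to 0.573 in WT tumours against -0.599 to -0.422 in Alb-Cre Stat3f/f tumours (rho -0.257 to 0.257 and -0.943 to -0.714), with exact permutation p for r of at least 0.207. The rank p was lower than that of r for the acinar score in Alb-Cre Stat3f/f tumours, where the smallest exact permutation p for rho was 0.0167 (0.133 after adjustment). The 2 tumours farthest from the median score were then left out. In WT tumours r with the macrophage score was 0.934 for Gbp9, 0.916 for Gbp6, 0.902 for Gbp5, 0.709 for Gbp2, 0.671 for Gbp3 and 0.442 for Gbp8. It was -0.12 for Gbp7 and -0.572 for Gbp4. In Alb-Cre Stat3f/f tumours r then ran from -0.386 to 0.126 with macrophages and from -0.577 to 0.0407 with T cells, each positive for 2 of the 8 genes. Leaving out the farthest tumours narrows the range of a score, which can lower r by itself. A lower r here therefore cannot show that a relation rests on those tumours. With T cells in WT it ran from -0.429 to 0.643 and was positive for 6 of 8. For the acinar score r then ran from -0.956 to -0.592 in WT tumours, negative for all 8 genes where 5 had been positive. In the other genotype it ran from -0.923 to 0.164. Each of these values rests on 4 tumours and was not tested.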

How the data were processed

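Per the labels, RNA of 12 tumours was taken up from FFPE sections (RNeasy FFPE kit) and sequenced as QuantSeq 3' FWD libraries. The authors deposited 1 table of counts per gene symbol, without normalisation; the submitters' processing notes name STAR and mm10, and no source used here gives the counting tool, annotation, strand setting or read filters. Of 24982 entries, 26 carried a number in place of a symbol (0.069 to 0.166% of a library's counts) and were left out. Of the other 24956, 97.9% matched 1 gene of GENCODE M21 (GRCm38). Within a genotype every pair of libraries differed beyond sampling noise (lowest chi-square per gene 11.85).

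The fit used edgeR 4.0.16 in R 4.3.3: filterByExpr (minimum count 10, total 15), which left 12856 genes, TMM scaling (factors 0.578 to 1.29), and a two-sided robust quasi-likelihood test on genotype, without covariates, Benjamini-Hochberg adjustment over all genes, threshold 0.05. A positive fold change is higher in Alb-Cre Stat3f/f tumours. Scores are mean log2 CPM (prior count 2) of a list's tested genes. Alternatives used DESeq2 1.42.0, limma 3.58.1 (voom), other scalings and filters, covariates, a block and left-out tumours. The genes, gene lists (6 pathway and 12 marker lists) and tests were chosen with earlier results of these data known. Named genes were all 9 members; Irf1, Ifng and Casp4 (1 further gene of this rule is not reported here); in each pathway list up to 4 genes past the test, or the 2 with the smallest p; and the 10 most correlated genes, predicted genes skipped. Ifngr1, Ifngr2, Mx1, Mx2, Gbp2b and Gbp11 were added with their values in view. The fit was tested on simulated data.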

Additional observations from a re-analysis of the deposited data

Results flagged for a closer look

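Alb-Cre Stat3f/f tumour 6 stood apart from the other 5 tumours of its genotype in 2 genes. It had 290 CPM of Gbp2, where the other 5 ran from 112 to 172 CPM, and 44.6 CPM of Gbp4, where they ran from 15.6 to 25.2 CPM. In both, its gap to the nearest tumour, as a share of the group's range, was over the 95% limit of Dixon's test for 6 values. In all, 18 groups of 6 values were examined, and chance marks about 1 in 20. The groups are not independent, since the genes were read in the same 12 tumours. Gbp2 and Gbp4 had r = 0.832 with genotype means taken out, so the 2 marks may reflect 1 event. Without this tumour the log2 fold change was 1.08 for Gbp2 and 1.68 for Gbp4, and both still passed (edgeR Benjamini-Hochberg adjusted p = 0.0334 and 0.00233).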

How the results depend on the processing

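The count of 5 members called higher was 5 with RLE or upper-quartile scaling, limma-voom, at least 10 CPM in 6 tumours, or without acinar genes and Rn45s, and 6 with DESeq2, which added Gbp5. It was 2 with no filter on low counts, 2 with the acinar score as a covariate, 2 when acinar-rich tumours were left out, and 0 with the macrophage or the pan-leukocyte score as a covariate. With 1 tumour left out it ran from 1 to 5, while 1.09 to 3.64% of all genes were called higher. The cause of these differences was not tested, other than that fewer tumours entered the left-out fits. The log2 fold change of the summed family ran from 0.97 to 1.28 with 1 tumour left out and from 1.18 to 1.65 over the 10 other alternatives without a leukocyte covariate. It was 0.28 with the macrophage and 0.35 with the pan-leukocyte score as a covariate. Signs reversed in those 2 fits alone: with the macrophage score Gbp5 had -0.40, Gbp6 -0.90, Gbp8 -0.73 and Gbp9 -0.24, and with the pan-leukocyte score Gbp6 had -0.48 and Gbp8 -0.48. With the title numbers as a replicate block, 1 member passed (Gbp4, edgeR Benjamini-Hochberg adjusted p = 0.0313), where 1.13% of all genes were called higher, and the summed log2 fold change was 1.18. The numbers are not stated to pair tumours, same-numbered tumours had correlations of deviations from -0.513 to 0.127, and 0 of 6 WT tumours correlated best with its own number. No alternative moved the median log2 fold change of all genes further from 0 than 0.0164.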
